A study of Homo sapiens with 9 samples.

Results

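The aryl hydrocarbon receptor (AHR), its DNA-binding partner ARNT, its repressor AHRR and 5 genes known as its targets (CYP1A1, CYP1B1, TIPARP, NQO1 and ALDH1A3) were followed in PC3 cells, a human prostate cancer line derived from a bone metastasis. These 8 genes, of 19775 with a probe set of their own, were taken by symbol, which gave 20 of the 54675 probe sets of the Affymetrix U133 Plus 2.0 arrays used. The genes were picked with the differences between co-cultured and untreated PC3 cells already known, so those differences, and the counts of genes called on them, are given as a description, with no p-value. RNA of PC3 cells was hybridized to 9 arrays after 48 h of culture. Untreated PC3 cells grew without osteoblasts (2 arrays). The co-cultures held PC3 cells below culture inserts that carried primary mouse osteoblasts, either from Sost knockout mice (OB SostKO, 2 arrays), or from wild type mice with 100 ng/ml recombinant human DKK1 (OB WT + rhDKK1, 2 arrays) or 100 ng/ml recombinant human SOST (OB WT + rhSOST, 3 arrays). DKK1 and sclerostin (encoded by SOST) are secreted and bind the LRP co-receptors of the Wnt pathway. PC3 cells with wild type osteoblasts and no added protein were not analysed here, so the effects of the wild type osteoblasts and of the added protein cannot be told apart. All arrays come from 1 cell line, and each is labelled a biological replicate with no word on whether the cultures were separate, so the errors measure the spread between arrays, which may be technical.

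AHR is a transcription factor of the bHLH-PAS family that waits in the cytoplasm with chaperones until a ligand binds, such as dioxin, a polycyclic aromatic hydrocarbon or a tryptophan metabolite. It then moves to the nucleus, pairs with ARNT and binds xenobiotic response elements, whose core letters are GCGTG, in genes for detoxifying enzymes. AHRR competes with AHR for ARNT, and TIPARP, an ADP-ribosyltransferase, marks AHR for loss, so that both close a negative feedback loop.

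The stretches of 250 bases before the RefSeq start sites (GRCh38.p14) are shown for 3 target genes, with each match to the core of the elements that the receptor pair binds. TIPARP is shown because it differed between co-cultured and untreated cells, and CYP1A1 and ALDH1A3 because they also hold a core and differed less. Capitals mark GCGTG, or CACGC where the core lies on the other strand, and each sequence runs 5′ to 3′ on the strand of its gene. The TIPARP window, the only one of its 3 with a core, is chr3:156674340-156674589 on the plus strand, the CYP1A1 window chr15:74725529-74725778 on the minus strand and the ALDH1A3 window chr15:100879581-100879830 on the plus strand.
TIPARP: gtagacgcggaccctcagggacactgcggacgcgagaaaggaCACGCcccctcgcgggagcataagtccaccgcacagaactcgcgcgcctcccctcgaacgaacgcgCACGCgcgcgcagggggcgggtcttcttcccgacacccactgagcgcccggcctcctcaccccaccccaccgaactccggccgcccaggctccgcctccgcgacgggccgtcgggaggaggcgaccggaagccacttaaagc
CYP1A1: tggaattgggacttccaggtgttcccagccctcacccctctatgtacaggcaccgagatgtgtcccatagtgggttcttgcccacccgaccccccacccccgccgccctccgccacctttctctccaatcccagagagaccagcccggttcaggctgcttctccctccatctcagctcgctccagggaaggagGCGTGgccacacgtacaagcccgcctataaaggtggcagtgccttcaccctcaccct
ALDH1A3: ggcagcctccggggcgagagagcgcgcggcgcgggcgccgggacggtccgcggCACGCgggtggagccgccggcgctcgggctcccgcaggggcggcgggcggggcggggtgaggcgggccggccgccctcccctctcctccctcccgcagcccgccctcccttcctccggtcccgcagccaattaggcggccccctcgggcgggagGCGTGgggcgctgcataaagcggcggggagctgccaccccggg
The TIPARP cores begin 208 and 142 bases before the start site, the CYP1A1 core 57 bases before it, and the ALDH1A3 cores 197 and 43 bases before it. RefSeq windows were matched for 7 of the 8 genes, not for CYP1B1, and gave 10 windows because some genes have several start sites. A core on either strand lay in 5 of the 10 windows, those of AHRR, CYP1A1, TIPARP and ALDH1A3, and in 32.2% of all 35116 windows of this length. The longer form TNGCGTG, which contains the core, was found in an AHRR window alone and in 4.52% of all windows. The antioxidant response element TGACNNNGC, read by the stress factor NRF2, was found in the ARNT window alone and in 10.9% of all windows. A match describes the letters of the window and does not show that a factor binds there. Bases outside the 250 were not searched, so a window without a match does not show that the gene lacks the element.

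Of the 20 probe sets, 16 passed a filter on low values, which asked for the 40th percentile of the array on at least 2 arrays, and every one of the 8 genes kept at least 1 probe set. The brightest kept probe set stood for its gene. All values are log2 values on the scale of the deposited arrays, and levels of different probe sets were not compared. The array medians lay between 5.45 and 5.52. Spiked-in poly-A control RNA, added during labeling, averaged 10.99 to 11.66 on the untreated arrays and 6.38 to 7.22 on the co-culture arrays. The ACTB control probe sets differed between their 3′ and 5′ ends by 0.50 to 0.88 on the untreated arrays and by 0.99 to 2.06 on the co-culture arrays, a measure of RNA or labeling quality. The same difference for GAPDH did not separate the groups, with 0.15 to 0.24 on the untreated and 0.12 to 0.42 on the co-culture arrays. The part of these technical differences in the results below was not tested. Each array read the pooled RNA of a culture, so fewer cells holding a transcript and less of it per cell cannot be told apart. PC3 identity was checked with 8 genes (KRT8, KRT18, KRT19, EPCAM, VIM, CD44, CDH2 and EGFR), which all passed the filter with a mean of 12.0 to 12.2 on every array. Of 12 osteoblast markers, 6 passed the filter, with a mean of 6.35 to 6.59 on the arrays of all groups and none called in a comparison. That mean covers unlike values. RUNX2 had group means of 8.83 to 9.09 and COL1A1 of 8.86 to 9.47, with 8.89 and 9.03 in untreated cells, grown without osteoblasts. ALPL, IBSP, SPARC and PHEX had group means between 4.63 and 6.17. SP7, COL1A2, SPP1, DMP1 and SOST stayed below the filter, and BGLAP was not analysed here. KLK2, KLK3 and TMPRSS2, genes of androgen-driven prostate cells that PC3 cells are known to lack or hold at low levels, also passed, so that passing the filter does not show that a gene was expressed.

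AHR itself differed little between cultures apart from 1 array. Its probe set 202820_at read 9.58 and 9.50 on the untreated arrays, 8.92 and 9.52 with OB SostKO, 9.44 and 9.33 with OB WT + rhDKK1 and 9.39, 9.51 and 9.60 with OB WT + rhSOST. A single array, OB SostKO array 1, was low, while the other OB SostKO array lay within the untreated range, the OB WT + rhDKK1 arrays lay slightly below it and the OB WT + rhSOST arrays overlapped with it. The log2 difference from untreated cells was -0.32 with OB SostKO (SE 0.17), -0.16 (SE 0.17) with OB WT + rhDKK1 and -0.039 (SE 0.16) in OB WT + rhSOST. Without OB SostKO array 1 the difference of that group was -0.013, and without OB SostKO array 2 it was -0.62, so the value for this group rested on which array was kept.

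ARNT, the partner that AHR needs to bind DNA, showed no common direction across its probe sets. The brightest, 218221_at, read 7.66 and 7.79 in untreated cells, 7.61 and 7.74 with OB SostKO, 7.74 and 7.67 with OB WT + rhDKK1 and 7.74, 7.68 and 7.80 with OB WT + rhSOST. All groups overlapped, and the differences from untreated cells were -0.053, -0.020 and 0.014 in that order of co-cultures (SE 0.09, 0.09 and 0.08). A second probe set, 231016_s_at, read 4.86 and 4.86 in untreated cells, 5.75 and 5.72 with OB SostKO, 5.61 and 5.61 with OB WT + rhDKK1 and 5.69, 5.55 and 4.88 with OB WT + rhSOST. It was higher on 6 co-culture arrays, while OB WT + rhSOST array 3 lay at the untreated level, and the untreated values were close to the filter level of 4.86 to 4.90 on those arrays. Its differences were 0.88, 0.75 and 0.51 (SE 0.23, 0.23 and 0.21), and the last was 0.76 without OB WT + rhSOST array 3. The probe set 218222_x_at gave -0.42, -0.33 and -0.15, and 230619_at gave 0.20, 0.19 and 0.18, the opposite direction. The remaining 3 ARNT probe sets (210828_s_at, 233714_at and 233724_at) stayed below the filter. The probe sets of this gene thus disagreed in sign.

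AHRR, the repressor that takes ARNT away from AHR and is itself an AHR target, varied little. Its single probe set 229354_at read 6.30 and 6.48 in untreated cells, 6.18 and 6.34 with OB SostKO, 6.30 and 6.47 with OB WT + rhDKK1 and 6.30, 6.24 and 6.22 with OB WT + rhSOST. Every co-culture overlapped with the untreated arrays, with differences of -0.13, -0.0049 and -0.14 (SE 0.10, 0.10 and 0.09). At these low values, passing the filter does not show that AHRR was expressed.

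CYP1A1, the monooxygenase that serves as the classic readout of AHR activity, was slightly lower in co-culture, within the spread of its arrays. The probe set 205749_at read 6.64 and 6.42 in untreated cells, 6.38 and 6.30 with OB SostKO, 6.21 and 6.36 with OB WT + rhDKK1 and 6.13, 6.32 and 6.51 with OB WT + rhSOST. OB SostKO and OB WT + rhDKK1 lay just below the untreated arrays, and OB WT + rhSOST overlapped with them. The differences were -0.19, -0.24 and -0.21 (SE 0.13, 0.13 and 0.12). These low values do not show whether CYP1A1 was expressed, since KLK3 and TMPRSS2 also passed the filter, so nothing is read from them about AHR activity.

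CYP1B1, the related enzyme that oxidizes steroids and polycyclic hydrocarbons in tissues outside the liver, had the largest difference among the 8 genes in every co-culture. Its brightest probe set, 202436_s_at, read 9.50 and 9.57 in untreated cells, 8.54 and 8.53 with OB SostKO, 8.54 and 8.60 with OB WT + rhDKK1 and 8.47, 8.42 and 8.22 with OB WT + rhSOST. All 7 co-culture arrays lay well below both untreated arrays. The differences were -0.999 (SE 0.09), -0.96 (SE 0.09) and -1.16 (SE 0.09), which left 0.500, 0.513 and 0.446 of the untreated level. Leaving out any array kept them between -1.04 and -0.96 for OB SostKO, between -1.002 and -0.93 for OB WT + rhDKK1 and between -1.21 and -1.09 for OB WT + rhSOST. The order of the groups was untreated, OB WT + rhDKK1, OB SostKO and OB WT + rhSOST. Both OB SostKO arrays lay just below the OB WT + rhDKK1 arrays, with a difference of -0.035 (SE 0.09).

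The other CYP1B1 probe sets that passed the filter showed the same direction with other sizes. The probe set 202437_s_at read 9.58 and 9.40 in untreated cells, 6.91 and 7.74 with OB SostKO, 7.68 and 7.36 with OB WT + rhDKK1 and 7.55, 7.73 and 8.07 with OB WT + rhSOST, a difference of -2.16, -1.97 and -1.70 (SE 0.27, 0.27 and 0.25). The probe set 202435_s_at read 8.77 and 9.42 in untreated cells, 7.91 and 8.10, 8.21 and 8.15, and 7.87, 8.02 and 7.59 in the co-cultures, a difference of -1.08, -0.91 and -1.27 (SE 0.21, 0.21 and 0.19). Both had all 7 co-culture arrays below the untreated arrays, but 202437_s_at was lowest with OB SostKO and 202435_s_at with OB WT + rhSOST, so the order of the co-cultures depended on the probe set. The fourth, 202434_s_at, stayed below the filter, read 4.61 to 4.85 on all arrays and gave -0.023, -0.025 and 0.011. The probe sets of a gene share its transcripts and its arrays and are not replicates.

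**Figure D1:**
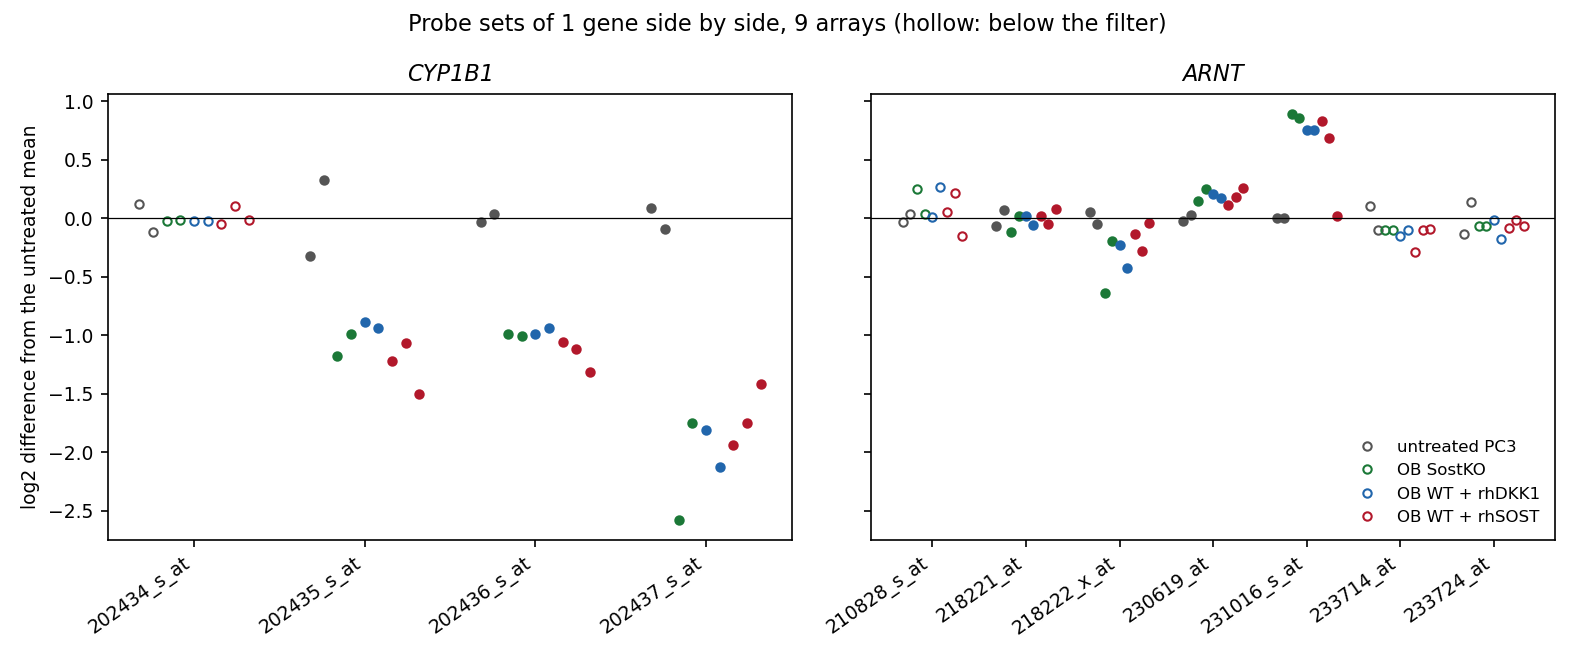
Log2 difference of each array from the mean of the untreated arrays (y axis) for every probe set of CYP1B1 (left) and ARNT (right), 9 points a probe set, hollow where the probe set stayed below the filter. For CYP1B1 the 7 co-culture points lie below the untreated points in 3 of 4 probe sets, and for ARNT the probe sets point in different directions, with OB WT + rhSOST array 3 at the untreated level in 231016_s_at.

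TIPARP, which ADP-ribosylates AHR and is induced by it, was lower in all co-cultures by a smaller amount. Its single probe set 212665_at read 11.12 and 11.07 in untreated cells, 10.60 and 10.71 with OB SostKO, 10.62 and 10.71 with OB WT + rhDKK1 and 10.63, 10.76 and 10.71 with OB WT + rhSOST. All 7 co-culture arrays lay below both untreated arrays, and the co-cultures overlapped with each other. The differences were -0.44 (SE 0.08), -0.43 (SE 0.08) and -0.39 (SE 0.07), which left 0.739, 0.744 and 0.761 of the untreated level. Of its 3 promoter windows, the one shown above holds 2 cores on the minus strand and the other two hold none.

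NQO1, a quinone reductase that both AHR and NRF2 are known to induce, changed by little. Its brightest probe set, 210519_s_at, read 11.22 and 11.08 in untreated cells, 11.02 and 11.03 with OB SostKO, 11.03 and 11.06 with OB WT + rhDKK1 and 11.04, 11.00 and 11.01 with OB WT + rhSOST. The co-culture arrays lay together just below the lower untreated array, and the differences were -0.12, -0.10 and -0.13 (SE 0.07 each). The probe set 201467_s_at gave -0.14, -0.13 and -0.12, whereas 201468_s_at gave 0.076, 0.018 and 0.0066.

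ALDH1A3, an enzyme that makes retinoic acid from retinal, was bright on all arrays. The probe set 203180_at read 13.91 and 13.92 in untreated cells, 13.70 and 13.79 with OB SostKO, 13.81 and 13.81 with OB WT + rhDKK1 and 13.73, 13.84 and 13.93 with OB WT + rhSOST. OB SostKO and OB WT + rhDKK1 lay below the untreated arrays and OB WT + rhSOST overlapped with them, with differences of -0.17, -0.10 and -0.080 (SE 0.08 each). A dim second probe set, 1558649_at, gave 0.097, 0.23 and 0.063, the opposite direction.

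**Figure D2:**
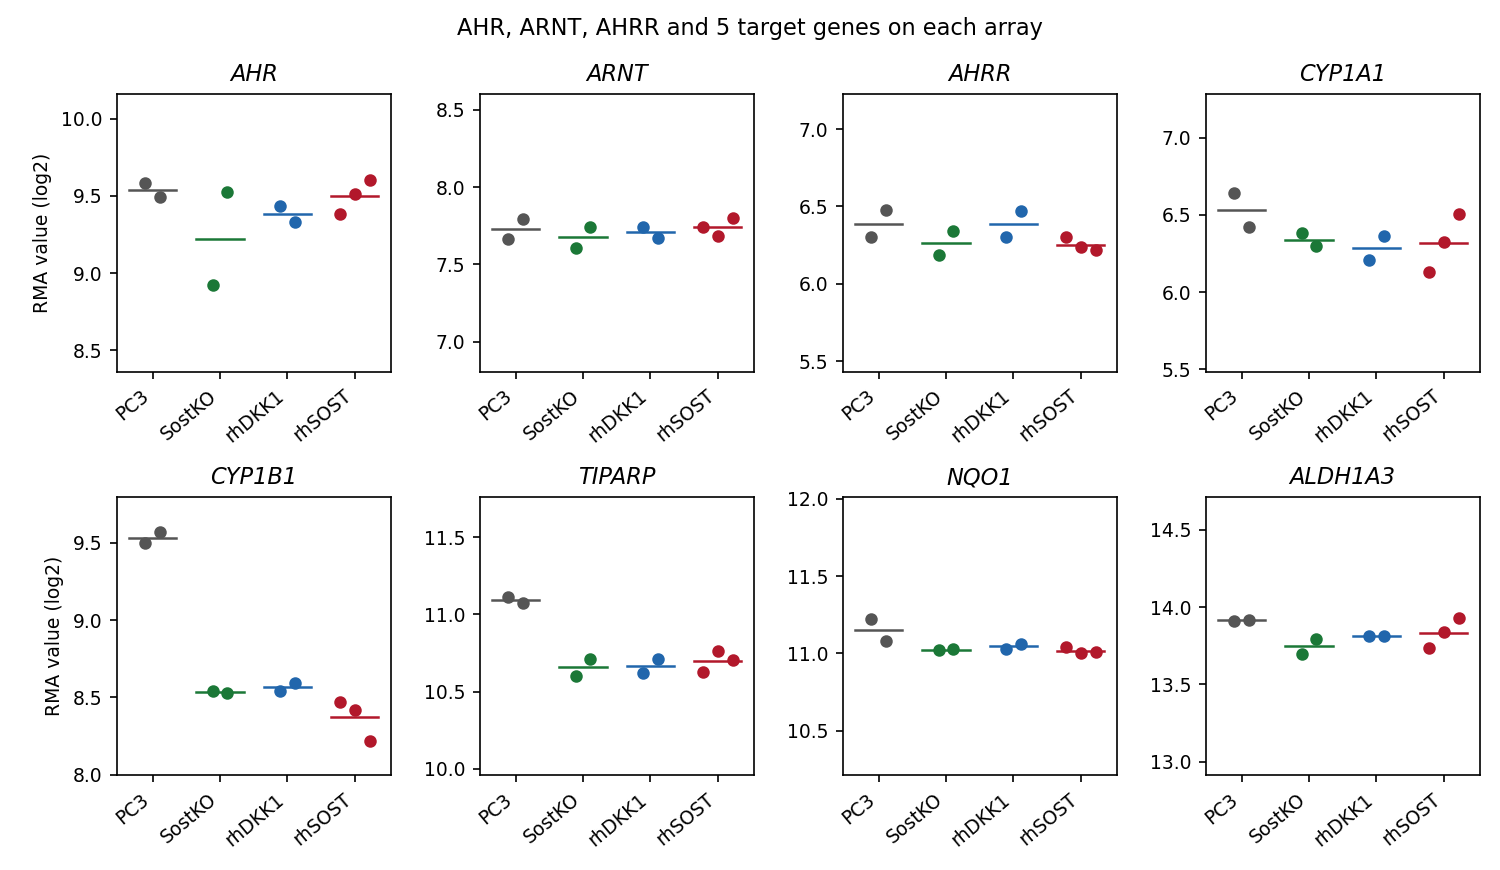
Log2 value (y axis) of the probe set that stands for each of the 8 genes on each of the 9 arrays, by group, with a line at the group mean; every panel spans the same number of log2 units. CYP1B1 and TIPARP have all 7 co-culture arrays below the untreated arrays by more than the groups' own range, and the low AHR point is OB SostKO array 1 at 8.92.

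A gene was called when its adjusted p fell under 0.05 in a limma model fitted to all genes. Among the 8 genes, 2 were called lower with OB SostKO, CYP1B1 and TIPARP, and 0 higher, where 1.65% of all 14863 genes tested were called lower and 2.07% higher. The same 2 genes were called lower with OB WT + rhDKK1 (background 1.76% lower and 2.5% higher) and with OB WT + rhSOST (background 2.1% lower and 4.87% higher), with 0 called higher in either. Because the genes were picked on these comparisons, and because the comparisons share the untreated arrays, nothing is read from these counts. The median difference of the 8 genes was -0.18, -0.13 and -0.13 in that order, beside -0.013, -0.015 and 0.019 over all genes. As part of the same description, CYP1B1 stayed called in each of the 9 fits that left out an array. The call of TIPARP was lost without either untreated array in all 3 comparisons, and for OB SostKO also without OB SostKO array 1 or either OB WT + rhDKK1 array, for OB WT + rhDKK1 without either of its own arrays and for OB WT + rhSOST without its array 1. In those fits its differences lay between -0.47 and -0.36. For OB SostKO, AHR was called as well without OB SostKO array 2, at the difference of -0.62 given above.

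In the model fitted to all 33970 kept probe sets, 2 of the 16 kept probe sets of these genes were called lower with OB SostKO, both of CYP1B1 (202436_s_at and 202437_s_at), where 0.718% of all kept probe sets were called lower and 0.901% higher. The same 2 were called with OB WT + rhDKK1 (background 0.721% lower and 1.03% higher). With OB WT + rhSOST 4 were called lower, 3 of CYP1B1 and 1 of TIPARP (background 1.32% lower and 2.66% higher). None was called higher in any of the 3 comparisons, also not the ARNT probe set 231016_s_at.

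**Figure D3:**
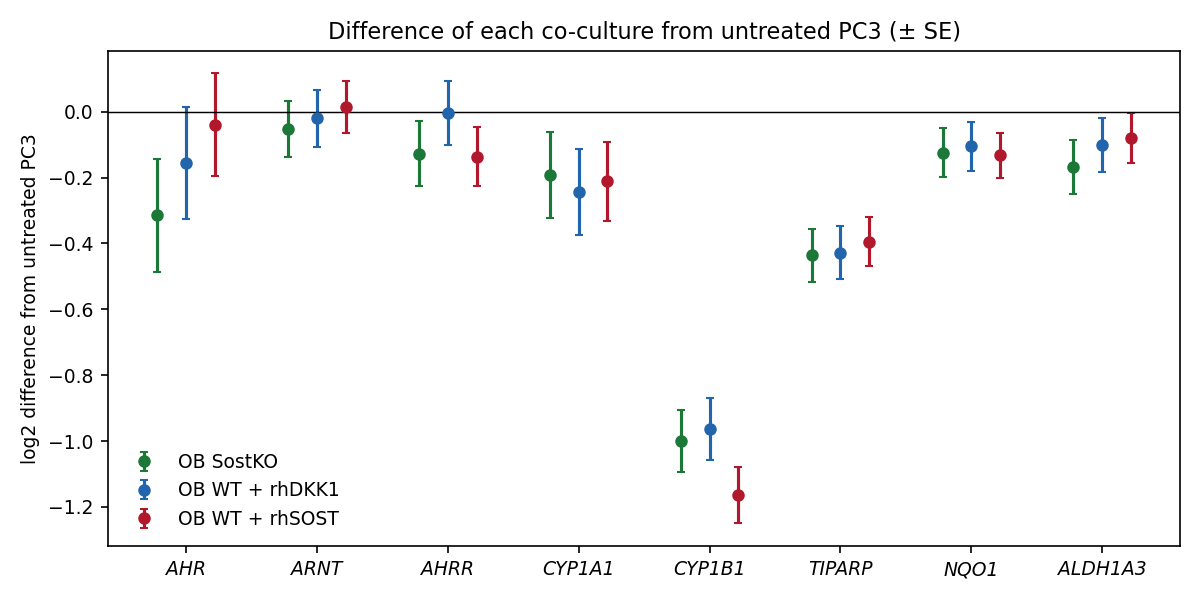
Log2 difference of each co-culture from untreated PC3 (y axis) for the probe set that stands for each of the 8 genes, with bars of 1 SE from the limma model over all 9 arrays. CYP1B1 lies between -1.16 and -0.96 and TIPARP between -0.44 and -0.39, while the other 6 genes lie between -0.32 and 0.014.

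The co-cultures were then compared with each other, with the untreated arrays entering only the estimate of the spread. Of the 8 genes 0 were called in any of the 3 direct comparisons, and of all 14863 genes 0 were called either (0% in each). At an unadjusted p under 0.05, 607 genes passed for OB SostKO against OB WT + rhSOST. For OB WT + rhDKK1 against OB WT + rhSOST 382 passed, and for OB SostKO against OB WT + rhDKK1 123. Each is a smaller share of the 14863 genes than the 0.05 that would pass if no gene differed. Nothing is therefore read from a gene passing at that level. Among the 8 genes only CYP1B1 passed at that level, in OB WT + rhDKK1 against OB WT + rhSOST. It was higher with OB WT + rhDKK1 by 0.20 (SE 0.09, 95% interval 0.0047 to 0.39, limma adjusted p = 0.9999), and the arrays of these groups did not overlap. With OB SostKO it was higher than with OB WT + rhSOST by 0.16 (SE 0.09, 95% interval -0.030 to 0.36, limma adjusted p = 0.800), also without overlap. OB SostKO and OB WT + rhDKK1 differed in CYP1B1 by -0.035 (95% interval -0.25 to 0.18). Against OB WT + rhSOST, the CYP1B1 probe set 202435_s_at pointed the same way, with 0.18 for OB SostKO and 0.35 for OB WT + rhDKK1, and 202437_s_at the other way, with -0.46 and -0.27.

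For TIPARP the direct differences were -0.042 for OB SostKO against OB WT + rhSOST (95% interval -0.21 to 0.13), -0.033 for OB WT + rhDKK1 against OB WT + rhSOST (-0.20 to 0.13) and -0.0089 for OB SostKO against OB WT + rhDKK1 (-0.19 to 0.18). AHR differed by -0.28 between OB SostKO and OB WT + rhSOST (SE 0.16, 95% interval -0.63 to 0.078, limma adjusted p = 0.800), a value carried by OB SostKO array 1. The intervals of TIPARP hold 0 and leave room for differences of up to about 0.2 in either direction, so they do not show that the co-cultures were alike.

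Genes that work with AHR were taken from 8 lists of 152 genes, without the 8 genes above, of which 127 were tested. With OB SostKO 13 fell and 0 rose, with OB WT + rhDKK1 11 fell and 0 rose, and with OB WT + rhSOST 11 fell and 2 rose. The share that fell was 10.2%, 8.66% and 8.66%, beside the background of all genes given above, and the median difference was -0.061, -0.045 and 0.016. The lists were chosen with earlier results of these data known, among them the falls of IL6 and IL1B. The genes that fell also include AKR1C1, AKR1C2 and AKR1C3, which do not count as separate results. The counts and shares are thus no independent evidence of direction, and nothing is read from them. The same holds for the adjusted p-values and calls of single list genes below, in the comparisons with untreated cells. They come from the arrays whose results were known when the lists were chosen, and are given as a description.

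Of 18 chaperones, coactivators and other partners of the receptor 16 were tested, and 1 passed in a single comparison. ARNT2, a relative of ARNT found mainly in nerve and kidney cells, rose by 0.68 with OB WT + rhSOST (SE 0.14, limma adjusted p = 0.0279). Its differences were 0.49 with OB SostKO (adjusted p = 0.125) and 0.51 with OB WT + rhDKK1 (adjusted p = 0.110). ARNT2 means were 5.36 in untreated cells and 6.04 with OB WT + rhSOST, near the array medians, and do not show that it was expressed. The call was kept in 3 of 9 fits that each left out an array, with differences of 0.58 to 0.78 and adjusted p-values of up to 0.195 (lost without either untreated array, either OB WT + rhDKK1 array, or OB WT + rhSOST array 1 or 2). NRIP1, a corepressor of nuclear receptors, had -0.49, -0.41 and -0.31 (limma adjusted p = 0.0506, 0.0782 and 0.108). SRC, a kinase held in the cytoplasmic complex and named here after its values were seen, had -0.56, -0.45 and -0.17 (SE 0.22, 0.22 and 0.20), none of which passed. Among the other bHLH-PAS proteins, 16 of 19 tested, ARNT2 was also the only one called. NPAS3, a neural member, had -0.37, -0.17 and -0.38, and PER3, a clock protein, had 0.094, 0.21 and 0.13, none of which passed.

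Of 13 further xenobiotic target genes, the group nearest to CYP1A1 and CYP1B1, 9 were tested. XDH, the xanthine oxidase of purine breakdown, fell in all co-cultures, with differences of -0.56, -0.97 and -0.59 in the order used above (limma adjusted p = 0.0330, 0.0047 and 0.0135). XDH means were 6.12 in untreated cells and 5.56, 5.15 and 5.53 in the co-cultures. These lie near the array medians, where passing the filter does not show that XDH was expressed. Its call held in 2, 8 and 7 of the 9 fits that each left out an array, with differences between -1.12 and -0.41. GSTA1, a glutathione transferase, rose by 0.35 with OB WT + rhSOST (limma adjusted p = 0.04997, just under the threshold) and had 0.30 and 0.41 with the other co-cultures (adjusted p = 0.130 and 0.0526). That call held in 1 of the 9 such fits, the one without untreated array 1, where the difference was 0.50, and without untreated array 2 it was 0.21. GSTA1 had means of 5.79 in untreated cells and 6.15 with OB WT + rhSOST, also near the array medians. The other 7 tested genes did not pass in any comparison.

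Of 20 growth and immune genes reported as AHR targets 18 were tested, of which 6 fell with OB SostKO and 5 in each of the other co-cultures. IL6, an inflammatory cytokine, fell most, with differences of -1.84, -1.90 and -1.92 (SE 0.12, 0.12 and 0.11). CDKN1A, the p21 inhibitor of the cell cycle, fell as well, with -0.80, -0.89 and -0.76 (limma adjusted p = 0.0058, 0.0040 and 0.0031). Both calls held in all 9 fits that each left out an array. IL1B, another inflammatory cytokine, had -0.84, -0.80 and -0.85, and its call held in 8, 7 and 9 of those 9 fits. HES1, a Notch-responsive repressor, had -0.91, -0.77 and -0.81, and its call held in 5, 5 and 7 of them. ID3, an inhibitor of bHLH factors, had -0.72, -0.86 and -0.85, with a call that held in 6, 6 and 8. Over those fits and all co-cultures the differences stayed between -1.04 and -0.61 for IL1B, between -1.04 and -0.65 for HES1 and between -0.91 and -0.59 for ID3. PTGS2, the inducible cyclooxygenase, fell with OB SostKO, by 0.86 (limma adjusted p = 0.0353), and had -0.55 without OB SostKO array 1, and its call held in 2 of 9 such fits. With OB WT + rhDKK1 it had -0.53 and with OB WT + rhSOST -0.60 (adjusted p = 0.132 and 0.0611). These genes are also known to be driven by other pathways, among them NF-kappaB, Notch and BMP signaling.

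**Figure D4:**
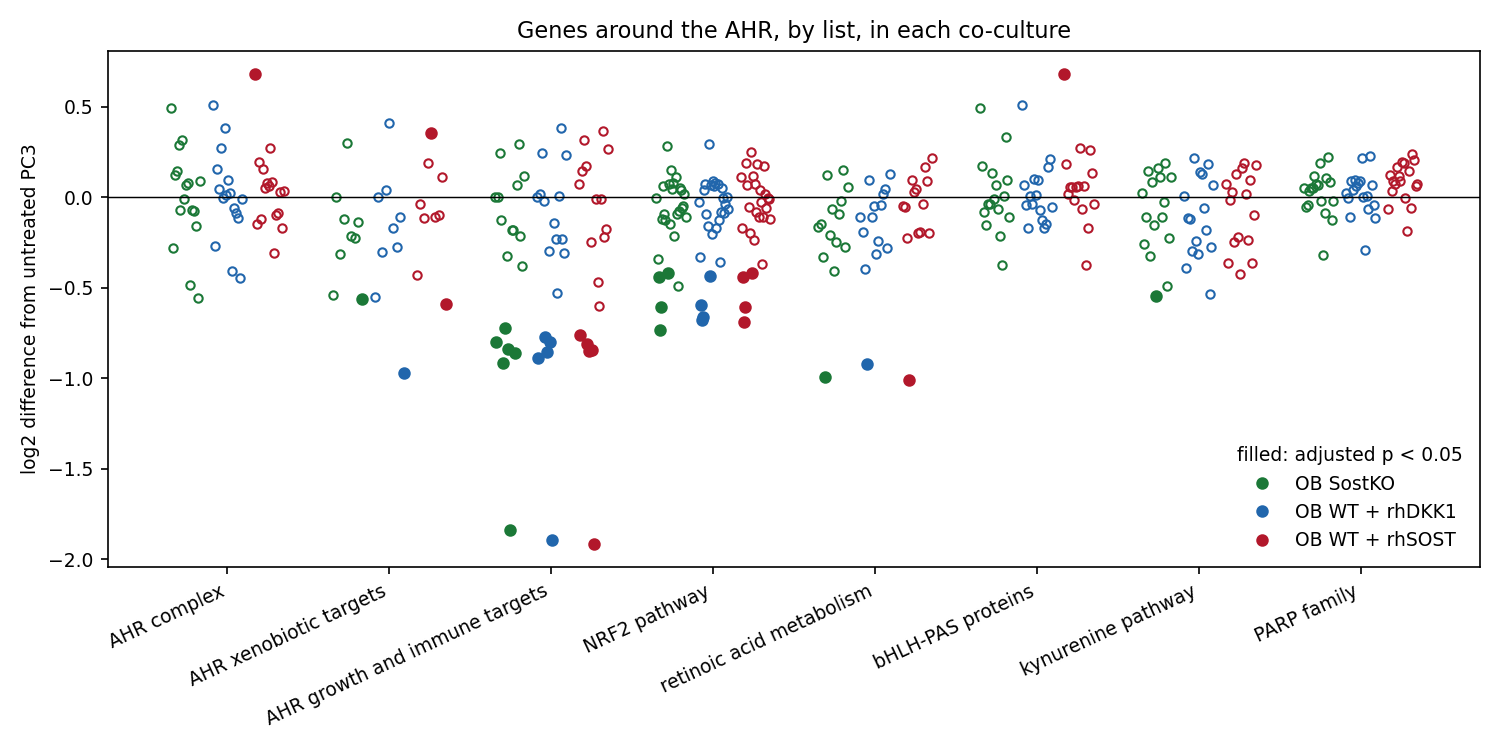
Log2 difference from untreated PC3 (y axis) of the tested genes of 8 lists around AHR, by co-culture, filled where the limma adjusted p was under 0.05. The filled points lie mostly below 0, among them IL6 near -1.9 in all co-cultures, and the rises are ARNT2, which stands in both the complex and the bHLH-PAS list, and GSTA1, with OB WT + rhSOST.

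NRF2, the antioxidant regulator that shares NQO1 with AHR, was represented with its regulators and targets by 31 genes, of which 27 were tested and 4 fell in each co-culture. The aldo-keto reductase AKR1C2 had differences of -0.73, -0.68 and -0.69, AKR1C3 had -0.61, -0.66 and -0.61, and AKR1C1 had -0.44, -0.60 and -0.44. These enzymes reduce steroids and prostaglandins. Their transcripts are similar in sequence, so probes may read more than 1 of them, and these genes do not count as separate results. Of the 9 fits that each left out an array, the calls held in 8, 6 and 9 for AKR1C2, in 7, 6 and 8 for AKR1C3 and in 3, 6 and 8 for AKR1C1. HMOX1, the heme oxygenase, had -0.42, -0.44 and -0.42 (limma adjusted p = 0.0219, 0.0190 and 0.0103), a call that held in 5, 5 and 8 of 9 fits that each left out an array. The other 23 tested genes of the list did not pass in any comparison.

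Of 22 genes of retinoic acid metabolism, the pathway of ALDH1A3, 14 were tested and only DHRS9 passed. DHRS9, a dehydrogenase that oxidizes retinol, fell, with -0.99, -0.92 and -1.01 (SE 0.10, 0.10 and 0.09; limma adjusted p = 0.0030, 0.0037 and 0.0013), and its call held in all 9 fits that each left out an array. The kynurenine pathway makes known AHR ligands from tryptophan, and 16 of its 17 genes were tested. KMO, which removes kynurenine, fell by 0.55 with OB SostKO (limma adjusted p = 0.0486) and had -0.31 and -0.43 with the others (adjusted p = 0.191 and 0.0570), and this call held in 1 of 9 such fits, the one without OB SostKO array 2. KMO means were 6.15 in untreated cells and 5.60 with OB SostKO, low values at which passing the filter does not show expression. SLC3A2, a subunit of the amino acid carrier that takes up kynurenine, had -0.49, -0.54 and -0.36, and AFMID, the enzyme that releases kynurenine, had -0.26, -0.39 and -0.37, none of which passed. Of the PARP family, to which TIPARP belongs, 18 of 20 genes were tested and 0 passed, as also 0 of the pathway genes passed in the direct comparisons. PARP9, PARP16 and PARP3 had the smallest p-values of that family, with 0.22, 0.23 and 0.24, with 0.19, 0.22 and 0.19 and with -0.32, -0.29 and -0.19.

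The patterns of the 8 genes over the 9 arrays are given as Pearson correlations that include the differences between groups. CYP1B1 and TIPARP had r = 0.912, CYP1B1 and NQO1 r = 0.802, AHR and ALDH1A3 r = 0.791, and AHR and CYP1B1 r = 0.198. Other pairs lay between these, such as TIPARP and ALDH1A3 (r = 0.723) and CYP1A1 with TIPARP (r = 0.695) or ALDH1A3 (r = 0.673). The genes thus did not form separate groups. The lowest value was -0.227, for ARNT and NQO1. The low value of OB SostKO array 1 entered the correlations of AHR. Of all other genes, those most like CYP1B1 were MLF1 (r = 0.989), GADD45A (r = 0.988), CXCL2 (r = 0.984) and DHRS9 (r = 0.982). GADD45A, a stress-induced gene of growth arrest, read 12.38 and 12.52 in untreated cells and 11.51 to 11.75 in the co-cultures, and CXCL2, a neutrophil chemokine, read 9.88 and 10.16 in untreated cells and 8.11 to 8.51 in the co-cultures. These genes and CYP1B1 shared the gap between untreated and co-culture arrays, with no overlap. Those most like AHR were LATS1 (r = 0.991), SH3BGRL (r = 0.986), SP3 (r = 0.983) and PIK3C2A (r = 0.977). They read 8.07, 10.53, 10.32 and 10.54 on OB SostKO array 1, the lowest of the 9 arrays for each of them. The gap shared with CYP1B1 and the low array shared with AHR follow from choosing these genes by correlation over the same arrays.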

How the data were processed

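The authors deposited log2 values from RMA, named without a version in the submitters' processing notes. RMA corrects background, equalizes the arrays and summarizes each probe set, which can compress differences. No arrays were pooled. Groups came from the sample labels. In R 4.3.3 with limma 3.58.1, 62 control probe sets were left out, and the filter kept 33970 others, of which the platform annotation gives 28244 a single symbol, 1307 several and 4419 none. Symbols were updated through RefSeq (GRCh38.p14). The brightest kept probe set stood for each of 14863 genes. A model with 4 group means (lmFit, eBayes, median 8.66 degrees of freedom, two-sided, Benjamini-Hochberg over all genes) used all 9 arrays. For the arrays the study's methods refer to an earlier publication, not used here, and for the whole study they name ANOVA with Tukey's comparisons and paired t-tests, which were run as alternatives. The members and lists were chosen with earlier results of these data known. Genes named are the 8 members, in each list the called genes (up to 4 with the smallest p in each direction) or otherwise the 2 with the smallest p, and the 4 genes most correlated with AHR and with CYP1B1; PTGS2 and SRC were added after their values were seen. The procedure was tested on simulated data. Alternatives covered the filter, normalization, probe sets per gene, groups in the fit, pairing, thresholds, tests and each array left out. The number of arrays limits the precision.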

Additional observations from a re-analysis of the deposited data

How the results depend on the processing

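The members called in each comparison with untreated PC3 were 2, CYP1B1 and TIPARP. The pathway genes called were 13 for OB SostKO, 11 for OB WT + rhDKK1 and 13 for OB WT + rhSOST. Both counts depended on the setting, and the cause was not tested unless the construction shows it. The differences of CYP1B1 and TIPARP kept their direction under all alternatives that gave one. Nothing is read from this, because the genes were picked on these differences and the alternatives reuse the same arrays. With only the 2 groups compared in the fit, and so fewer arrays, OB SostKO had 0 members and 0 pathway genes called. OB WT + rhDKK1 had 1 and 4, and OB WT + rhSOST, with 3 arrays, had 2 and 14. Of all 14863 genes, those fits called 0, 58 and 608. The ANOVA with Tukey comparisons and the methods' paired t-test, both adjusted, called 0 members and 0 pathway genes in each comparison. Of all 14863 genes the ANOVA called 1, 1 and 9 and the paired t-test 0, 0 and 2. Hardly any gene was called, so nothing is read from these member and pathway counts. When every kept probe set was tested, which adjusts over more features, 1 member was called for OB SostKO and 1 for OB WT + rhDKK1. Asking also for a fold of at least 2 left 0, 0 and 1 members and 1, 1 and 2 pathway genes. An unadjusted p under 0.05 passed 34, 34 and 35 pathway genes, beside 3081, 3173 and 3507 of all 14863 genes. For OB WT + rhDKK1 against OB WT + rhSOST it passed 1 member, CYP1B1 (0 when adjusted), beside 382 of all genes. Leaving out each array in turn gave 1 to 3, 1 to 2 and 1 to 2 members and 4 to 15, 3 to 14 and 7 to 16 pathway genes. The lowest pathway counts came without untreated array 1 for OB SostKO (4; 6 without untreated array 2 and 5 without OB SostKO array 1) and OB WT + rhSOST (7), and without OB WT + rhDKK1 array 2 for that group (3; 4 without its array 1 and 6 without untreated array 1). Without untreated array 1 the calls over all genes went from 553, 633 and 1036 to 64, 98 and 174.

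The labels give arrays of different groups the same replicate numbers, and do not say whether these pair the arrays. Of 12 same-numbered pairs, 4 had a correlation of their deviations over 0.1 (range -0.57 to 0.31). In a group of 2 arrays the deviations from the mean are equal and opposite, so some pairs repeat the same value. The count therefore cannot settle whether the arrays were paired. With the replicate block, in which OB WT + rhSOST array 3 has a number of its own and is fitted by itself, 1 member (CYP1B1) was called in each comparison, with 9, 11 and 10 pathway genes and 347, 406 and 488 of all genes. A crossed replicate block, chosen after seeing the data, exchanged the numbers of the OB WT + rhDKK1 arrays and called 2 members in each comparison and 15, 14 and 17 pathway genes.

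Averaging the kept probe sets of a gene moved CYP1B1 to -1.42, -1.28 and -1.38 and ARNT to 0.15, 0.15 and 0.14, a sign change for OB SostKO and OB WT + rhDKK1, and ALDH1A3 to 0.067 for OB WT + rhDKK1. No member was called in a direct comparison under any other alternative.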
